A study of Mus musculus with 24 samples.

Results

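*Clca1*, *Clca2*, *Clca3a1*, *Clca3a2*, *Clca3b*, *Clca4a* and *Clca4b* form the calcium-activated chloride channel regulator (CLCA) family of the mouse. They were taken from the table of normalized read counts by gene symbol, and 7 of the 7 listed genes had a row among its 18762 genes. The family was chosen on values measured in these mice, namely the old minus young difference of *Clca3a1*. All values of old against young members are therefore given as a description. Counts of members called in that contrast are printed beside the share of all genes, and nothing is read from them. The tests of members below are of the label letter and of the interaction of letter and age, which were not used in that choice.

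The cells were LSK-SLAM cells of bone marrow, a sorted fraction rich in hematopoietic stem cells (HSCs) that lacks lineage markers and CD48 and carries Sca-1, c-Kit and CD150 on its surface. They came from C57BL/6 mice of genotype WT, and the labels name no other allele and no treatment. There were 5 young mice, aged 4 to 5 months, and 7 old mice, aged 20 to 22 months, by the labels. Each mouse had 1 column of values, and the name of each column ended in the letter A or B. Letter A held 2 young and 4 old mice and letter B held 3 young and 3 old mice, and what the letter stands for is not given in the sources used here.

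CLCA proteins enter the secretory pathway, carry a metalloprotease domain and cleave themselves. In spite of the family name they are not channels: they are known to raise calcium-activated chloride currents that other proteins carry, and CLCA1 does so by stabilising the anoctamin channel Ano1 at the cell surface. *Clca1* is known from goblet cells, where its product is released with mucus, and *Clca3a1* from blood and lymphatic endothelium. Several members have changed names, so that *Clca3a1* was formerly called *Clca1* and *Clca1* was formerly called *Clca3* or gob-5.

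All 7 genes lie side by side on chromosome 3 (chr3:144729677-145099443, mm10), in a stretch of 369.767 kb. All are on the minus strand in the order *Clca3a1*, *Clca3a2*, *Clca3b*, *Clca4b*, *Clca4a*, *Clca1* and *Clca2*. Between the first and the last member, GENCODE vM21 lists 7 other genes, none of which had a row in the table. Over 2706 coding bases, *Clca3a1* and *Clca3a2* were 97.1% identical and differed at 79 positions. *Clca3b* was 87.1% identical to *Clca3a1*, and *Clca4a* and *Clca4b* were 96.0% identical to each other. Between *Clca3a1* and *Clca4b*, *Clca4a*, *Clca1* or *Clca2*, identity was 61.9% to 65.4%.

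How alike the coding sequences are matters for every value below, because a read from an identical stretch cannot be assigned to 1 gene. The first 120 coding bases of the 3 genes at the *Clca3a1* end (GRCm38, minus strand, read from the transcripts) show this, with the only base that differs from *Clca3a1* in capitals. *Clca3a1* and *Clca3a2* are the same throughout this stretch, and *Clca3b* differs at 1 base.
*Clca3a1*, chr3:144760603-144760722: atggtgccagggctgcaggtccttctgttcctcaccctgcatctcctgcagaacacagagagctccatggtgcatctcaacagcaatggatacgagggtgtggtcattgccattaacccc
*Clca3a2*, chr3:144819350-144819469: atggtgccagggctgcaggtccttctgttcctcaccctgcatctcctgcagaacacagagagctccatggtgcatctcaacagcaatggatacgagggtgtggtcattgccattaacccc
*Clca3b*, chr3:144849166-144849285: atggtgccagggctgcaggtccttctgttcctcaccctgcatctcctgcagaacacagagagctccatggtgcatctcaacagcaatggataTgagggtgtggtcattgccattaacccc

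Windows of 120 bases were compared between *Clca3a1* and *Clca3a2* within the coding sequence only. The 2 genes differed most within coding bases 499 to 618, at 15 positions. These bases span 2 exons, so that the coordinates include an intron that is not shown. Capitals mark the bases of *Clca3a2* that differ from *Clca3a1*.
*Clca3a1*, chr3:144755271-144758016: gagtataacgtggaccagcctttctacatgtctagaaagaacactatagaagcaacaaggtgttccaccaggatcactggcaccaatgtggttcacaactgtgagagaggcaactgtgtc
*Clca3a2*, chr3:144813994-144816760: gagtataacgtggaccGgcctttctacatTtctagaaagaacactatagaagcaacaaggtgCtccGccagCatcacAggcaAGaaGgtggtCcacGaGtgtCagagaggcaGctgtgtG

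Cut into overlapping words of 50 bases, 26.8% of the exon sequence of *Clca3a1* was shared with another annotated gene, mostly with *Clca3a2* (864 of 1045 shared words). The shared portion was 26.9% for *Clca3a2*, 6.68% for *Clca3b*, 24.8% for *Clca4b* and 41.0% for *Clca4a*, and 0 words were shared for *Clca1* and *Clca2*. *Clca4a* shared most with *Clca4c-ps*, which is not among the 7 members (697 of 1212 shared words). Words were matched on both strands. How the authors counted reads that match more than 1 gene is not given in the sources used here, so values of *Clca3a1*, *Clca3a2*, *Clca4a* and *Clca4b* hold an uncertain part. Genes on the opposite strand overlap *Clca3a1* (*Gm34866*), *Clca3a2* (*Gm43240*), *Clca3b* (*Gm16215*) and *Clca4a* (*Gm16233* and *Gm35066*), and whether counting used the strand is not given in the sources used here.

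*Clca3a1* was by far the most abundant member in LSK-SLAM cells. Its normalized read count in young mice was 57.2, 59.1, 87.3, 104.4 and 96.7 in mice 1 to 5, of which mice 1 and 2 carry letter A and mice 3 to 5 letter B. In old mice it was 212.4, 260.9, 357.1, 289.1, 93.1, 114.3 and 177.1 in mice 1 to 7, of which mice 2, 3 and 4 carry letter B and the others letter A. Old mouse 5, at 93.1, overlapped the young mice, and the 6 other old mice were all above them. Within letter A and within letter B every old mouse lay above every young mouse.

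*Clca3a1* averaged 80.9 ± 21.7 (SD, n = 5) among young mice and 214.9 ± 95.1 (SD, n = 7) among old mice, a ratio of 2.65. On the log2(value + 1) scale the difference was 1.30 (SE 0.30), and 1.46 (SE 0.20) with the letter in the fit. Letter A alone gave averages of 58.2 ± 1.34 (SD, n = 2) among young mice and 149.2 ± 55.2 (SD, n = 4) among old mice. Letter B alone gave 96.1 ± 8.55 (SD, n = 3) among young mice and 302.4 ± 49.5 (SD, n = 3) among old mice. The difference was 1.27 within letter A and 1.63 within letter B, so that it had the same sign in both. Among all 12354 genes with a mean of at least 10, *Clca3a1* had the 30th largest increase on the log2 scale, and the 14th largest with the letter in the fit. The reads behind each value numbered 123 to 532 in young and 118 to 1487 in old mice.

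**Figure D1:**
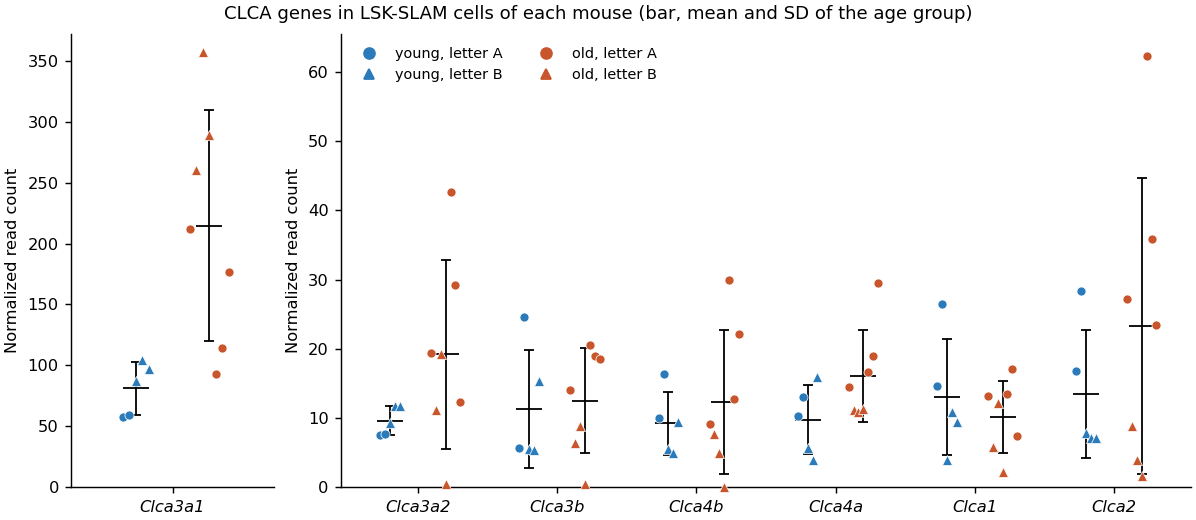
Normalized read counts (y axis, starting at 0, with separate scales) of *Clca3a1* on the left and of the 6 other CLCA genes on the right in each of 5 young and 7 old mice, with circles for letter A and triangles for letter B. The black bar gives the mean and SD of the age group: *Clca3a1* lies between 57.2 and 357.1, whereas no other member exceeds 62.4 in any mouse.

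The 6 other members were low in every mouse. *Clca3a2*, the near copy of *Clca3a1*, averaged 9.58 ± 2.10 (SD, n = 5) among young mice and 19.2 ± 13.6 (SD, n = 7) among old mice. Its young values lay between 7.47 and 11.8. Old mouse 4 held the lowest old value, 0.389, and old mouse 5 the highest, 42.6, so that the old mice spread to both sides of the young range.

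*Clca3b* averaged 11.2 ± 8.55 (SD, n = 5) among young mice and 12.5 ± 7.54 (SD, n = 7) among old mice. *Clca4a* averaged 9.74 ± 4.96 (SD, n = 5) and 16.1 ± 6.67 (SD, n = 7), and its old values of 10.8 to 29.5 overlapped the young values of 3.92 to 15.9. *Clca4b* averaged 9.22 ± 4.58 (SD, n = 5) and 12.3 ± 10.4 (SD, n = 7). The old and young values of each of these genes overlapped. *Clca1*, the goblet cell gene, was the 1 member with a lower mean in old mice, at 10.1 ± 5.17 (SD, n = 7) against 13.0 ± 8.42 (SD, n = 5). *Clca2*, which is known from skin and other stratified epithelia, averaged 13.4 ± 9.31 (SD, n = 5) among young mice and 23.3 ± 21.4 (SD, n = 7) among old mice.

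Old mouse 4 held the lowest value of all 12 mice for *Clca3a2*, *Clca3b*, *Clca4b*, *Clca1* and *Clca2*, although its depth of 5.00 M recovered reads (M, 1000000) was among the highest. It had 2 reads on *Clca3a2*, 2 on *Clca3b* and 0 on *Clca4b*. A count of 0 there allows a normalized read count of up to 0.583, the value of 3 reads in that library, for counting error only. In the other mice the 6 genes had 6 to 79 reads each.

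On the log2(value + 1) scale, the old minus young difference was 0.46 (SE 0.66) for *Clca3a2*, 0.01 (SE 0.69) for *Clca3b*, -0.06 (SE 0.74) for *Clca4b*, 0.73 (SE 0.43) for *Clca4a*, -0.31 (SE 0.56) for *Clca1* and 0.30 (SE 0.70) for *Clca2*. Each of these differences except that of *Clca4a* was smaller than its SE. Over the 7 members 5 differences were above 0, with a median of 0.30 beside -0.02 over all 12354 genes. With the letter in the fit, 3 of 7 were above 0 and the median was -0.09. Without the letter, 0 of the 7 members were called between the ages, where 0.105% of all genes were called by limma (13 of 12354, and 488 at an unadjusted p under 0.05). With the letter 1 member, *Clca3a1*, was called, where 0.299% of all genes were. None of the 7 members had ages that did not overlap, as 0.461% of all genes had. Since the family was chosen on this contrast, nothing is read from these counts. In bulk RNA, fewer cells that express a gene and less RNA in each cell cannot be told apart, and this holds for every value here.

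Levels of different genes can be compared only per length. Per 1000 bases of annotated exon, the mean normalized read count over 12 mice was 40.8 ± 25.5 (SD, n = 12) for *Clca3a1*. The next member in order was *Clca4a*, at 4.48 ± 2.21 (SD, n = 12), so that the level of *Clca3a1* was 9.11 times as high. The letters differed in this: *Clca3a1* was 4.38 times as high as the next member, *Clca2*, in letter A and 15.7 times as high as the next, *Clca4a*, in letter B. *Clca2* followed at 4.13 ± 3.78, *Clca3a2* at 3.82 ± 2.84, *Clca4b* at 3.68 ± 2.78, *Clca3b* at 3.56 ± 2.27 and *Clca1* at 3.003 ± 1.73 (each SD, n = 12). Neighbours in this order from *Clca4a* down to *Clca1* differed by less than their SD over the mice, and their order is not read further. The lowest mouse for *Clca3a1*, at 14.7 per 1000 bases, was above the highest mouse of every other member, which for *Clca2* reached 13.4. Among 18262 genes with a read and a length, *Clca3a1* stood at percentile 96.2, and the 6 others stood between percentile 23.5 and 46.7.

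The 6 low members were at the level per length of genes whose tissues are not part of the sort. Their levels per 1000 bases ran from 3.003 to 4.48, with a median of 3.75. Goblet and mucous markers with a row, which include the gel-forming mucins *Muc2*, *Muc5ac* and *Muc5b*, ran from 2.32 to 6.32 (7 genes, median 4.07). Stroma markers such as *Col1a1* and *Pdgfra* ran from 2.99 to 5.78 (6 genes, median 3.64), and *Krt14* and *Trp63* of stratified epithelium were at 4.34 and 3.38. For the 1068 olfactory receptor genes, which were added as a comparison after the values had been seen, the median was 2.53 and the highest level was 5.77. Whether reads on the 6 members came from their spliced transcripts was not tested.

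**Figure D2:**
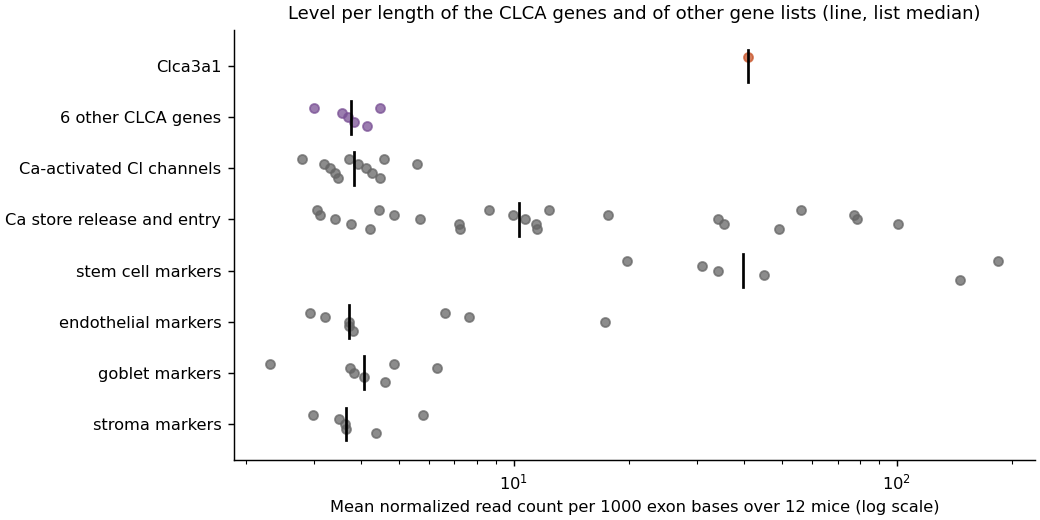
Mean normalized read count per 1000 exon bases over 12 mice (x axis, log scale) of single genes (points), with *Clca3a1* in orange, the 6 other CLCA genes in purple and other lists in grey, and the list median as a line. *Clca3a1* at 40.8 lies among the stem cell markers, and the 6 others (3.003 to 4.48) lie among goblet and stroma markers. The endothelial marker *Ccl21a*, at 0 in all mice, cannot be drawn on this axis but counts in the median.

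The sorted population was checked against its markers. *Kit*, *Ly6a* (Sca-1) and *Slamf1* (CD150) had levels of 169.2, 83.0 and 15.1 per 1000 bases, and *Cd48*, whose protein was sorted against, had 5.20. The stem cell markers *Procr*, *Mecom*, *Hlf*, *Fgd5* and *Mllt3* were all above 10 per 1000 bases. Blood and lymphatic endothelium, the best known source of *Clca3a1*, was checked with 9 markers that had a row. *Ccl21a*, a chemokine of lymphatic endothelium, was at 0 in all 12 mice. The vascular cadherin *Cdh5* and the lymphatic factor *Prox1* were at 3.79 and 3.22 per 1000 bases, *Flt4* and *Pdpn* each at 3.71 and *Lyve1* at 2.93. *Kdr*, at 6.59, and *Emcn*, at 7.66, were above the highest goblet and stroma markers. *Pecam1*, which HSCs also express, was at 17.3. The summed normalized read count of the 9 endothelial markers was 229.8 to 380.7 in young mice (median 261.2). In old mice it was 234.5 to 389.1 (median 312.4). Single markers went both ways, with *Kdr* at an old minus young difference of 0.47 (SE 0.25) and *Emcn* at -0.70 (SE 0.25). Of the 6 tested ones 0 were called between the ages. Over all genes 0.105% were called, so that nothing is read from this count. The part of endothelial cells in the values of *Clca3a1* was not tested.

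The label letter was tested over all genes with age in the fit, and 4 of the 7 members were called. *Clca3a1* was higher in letter B and *Clca2*, *Clca4b* and *Clca3b* were lower, at a Benjamini-Hochberg adjusted p under 0.05 in limma. Over all genes, 36.1% were called for the letter and 25.6% were called lower in letter B, so that calls of this kind were frequent. The median difference of all genes was -0.09 on the log2 scale, and that of the 7 members was -1.13.

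*Clca3a1* had means of 118.9 ± 63.6 (SD, n = 6) in letter A and 199.2 ± 117.3 (SD, n = 6) in letter B, and the values overlapped. With age in the fit, the difference B minus A was 0.93 (SE 0.19, adjusted p = 0.00119 in limma). Without age in the fit, the difference was 0.68 and was not called (adjusted p = 0.0974 in limma). Letter A held 4 old of 6 mice and letter B 3 old of 6.

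*Clca2* differed most. Its values in letter A were 16.8 to 62.4 (median 27.7, n = 6) and in letter B 1.56 to 8.86 (median 7.06, n = 6), with no overlap between the letters. The difference was -2.27 (SE 0.41, adjusted p = 0.000329 in limma). *Clca4b* had means of 16.7 ± 8.08 (SD, n = 6) in letter A and 5.38 ± 3.18 (SD, n = 6) in letter B, and its difference was -1.70 (SE 0.55, adjusted p = 0.0179 in limma). *Clca3b* had means of 17.0 ± 6.53 and 6.93 ± 4.92 (SD, n = 6 each), with a difference of -1.42 (SE 0.53, adjusted p = 0.0367 in limma). Without old mouse 4, *Clca4b* was not called at -1.12 (adjusted p = 0.0677 in limma), and neither was *Clca3b* at -0.88 (adjusted p = 0.146 in limma). For *Clca3b* the call was also lost without young mouse 2, 3 or 4, or old mouse 2, 5, 6 or 7 (each in turn).

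The other members did not pass the test. *Clca1* had a difference of -1.13 (SE 0.45, adjusted p = 0.0522 in limma), *Clca3a2* of -0.87 (SE 0.54, adjusted p = 0.209) and *Clca4a* of -0.69 (SE 0.39, adjusted p = 0.162). *Clca1* lay near the threshold. Its difference was called in limma without young mouse 5 or old mouse 3 or 7, at adjusted p-values of 0.0460, 0.0286 and 0.0410. It was also called with a pseudocount of 4 (0.0477), a minimum mean of 1 (0.0443), no trend (0.0290) and DESeq2 (0.0350). Without old mouse 4 the difference of *Clca3a2* was -0.12 (adjusted p = 0.852 in limma).

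The letter moved with depth and with level. Depth here means recovered reads, which are reads on the genes of the table and not all reads sequenced. Recovered reads were 0.861 to 3.11 M in letter A (median 2.12, n = 6) and 3.23 to 5.12 M in letter B (median 4.53, n = 6), with no overlap (two-sided exact permutation test of mean log2 reads, p = 0.00216, the smallest p that 6 against 6 allows). Of the 3475 other genes with a mean of 10 to 20, where the 6 low members lie, 91.7% were lower in letter B and 53.7% were called lower, and their median difference was -1.21. The median of the 6 low members was -1.28. For the 1736 genes with a mean of 100 to 250, where the mean of *Clca3a1* over all mice (159.1) lies, the median difference was 0.38 and 32.1% were called higher in letter B. The share of reads on *Gm10800*, the most abundant row, was 7.18% to 18.6% in letter A and 1.60% to 8.44% in letter B. What the letter stands for, depth and these shares cannot be told apart. With all libraries thinned to the 861047 reads of the shallowest mouse, the B minus A difference was 1.06 for *Clca3a1*, -2.62 for *Clca2* and -2.07 for *Clca4b* (adjusted p = 0.000481, 0.000930 and 0.0158 in limma). *Clca3b* was not called there, at -1.30 (adjusted p = 0.0876 in limma).

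**Figure D3:**
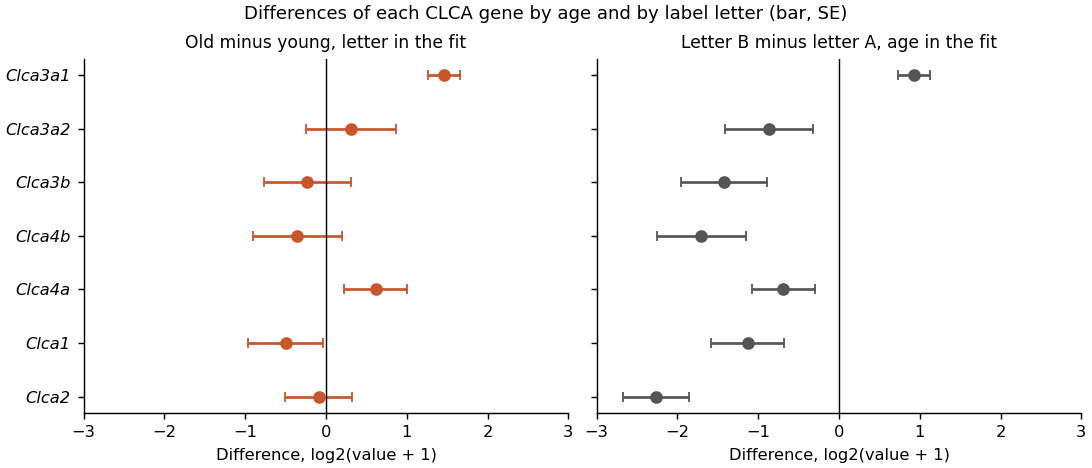
Differences on the log2(value + 1) scale (x axis) of each CLCA gene between old and young mice with the letter in the fit (left) and between letters B and A with age in the fit (right), with SE as bars. *Clca3a1* is above 0 in both panels (1.46 and 0.93), whereas the 6 other members are below 0 for the letter (-0.69 to -2.27).

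Whether the old minus young difference itself differed between the letters was tested as an interaction. Of the 7 members 0 were called in limma, and 0.0162% of all genes were (2 of 12354). For *Clca3a1* the difference in letter B exceeded that in letter A by 0.37 (SE 0.40, adjusted p = 0.9998 in limma). *Clca3a2* had the largest interaction of the family, at -2.27 (SE 1.04, unadjusted p = 0.0375, adjusted p = 0.9998 in limma). Its old minus young difference was 1.51 within letter A and -0.76 within letter B. Without old mouse 4, which is in letter B, the interaction of *Clca3a2* was -1.11, and without young mouse 2 that of *Clca3b* was larger in size (-2.42 against -2.29). A p that misses the threshold does not show that the differences were alike. At an unadjusted p under 0.05 there were 424 genes in all.

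Together the 7 genes received 236 to 1568 reads per mouse, and the share of them on *Clca3a1* differed between mice. It was 46.9%, 33.7%, 69.9%, 70.5% and 58.4% in young mice 1 to 5. In old mice 1 to 7 it was 68.6%, 83.7%, 85.7%, 94.8%, 33.4%, 46.3% and 61.0%. The 95% Wilson interval of single mice, which covers counting error only, was 28.7% to 38.5% in old mouse 5 and 93.6% to 95.8% in old mouse 4. The share was 48.3% ± 14.2 (SD, n = 6) in letter A and 77.2% ± 13.2 (SD, n = 6) in letter B, and the letters overlapped. The reads on *Clca3a1* were between 118 and 1487, and those on the 6 others together between 81 and 281.

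**Figure D4:**
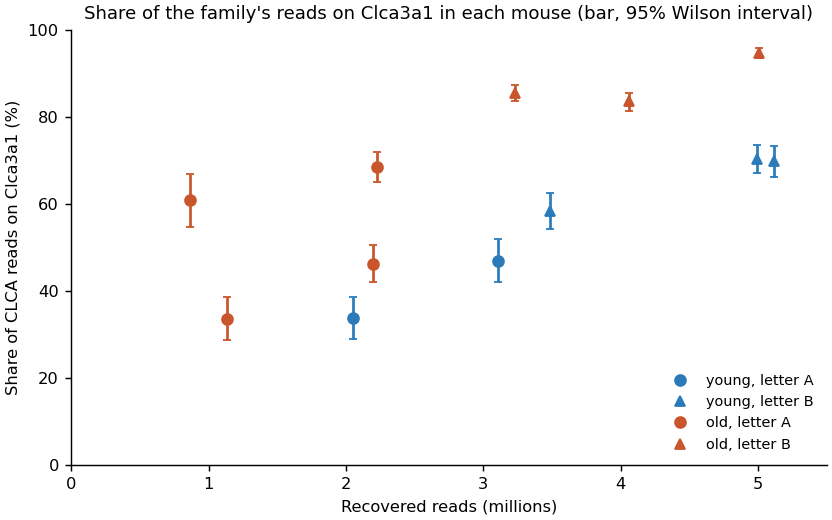
Share of all CLCA reads that fell on *Clca3a1* (y axis, percent, with 95% Wilson intervals) against the recovered reads of each mouse (x axis, M), with young mice in blue, old mice in orange, circles for letter A and triangles for letter B. The 3 old mice of letter B have shares of 83.7% to 94.8%, above every other mouse, and the 2 lowest shares (33.4% and 33.7%) are in letter A.

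Because *Clca3a1* and *Clca3a2* are nearly identical, their reads were compared within each mouse. *Clca3a2* took 9.55% to 11.5% of the reads of the pair in the 5 young mice. In old mice it took 0.134% to 31.4%, with the lowest share in old mouse 4 (95% Wilson interval 0.0368% to 0.488%) and the highest in old mouse 5 (24.9% to 38.7%). Across the 12 mice the log2 values of the pair had a Pearson r of -0.15. This r is a description over mice that share depth and letter.

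Across the same 12 mice, *Clca3a1* had r between -0.49 and 0.14 with the other members, while the 15 pairs among the 6 low members had r between 0.21 and 0.92. The highest of these was between *Clca3b* and *Clca4b*. After the mean of each age-by-letter group was subtracted, r was -0.56 to 0.05 for *Clca3a1* and -0.13 to 0.84 among the others. All these values share library depth, which differed between the letters.

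The genes whose pattern over the 12 mice was most like that of *Clca3a1* were *Itgb3* (r = 0.96), *Vldlr* (r = 0.95), *Pbx3* (r = 0.94), *Vwf* (r = 0.93) and *Selp* (r = 0.92). *Itgb3* encodes an integrin chain of platelets and other cells, *Vldlr* a lipoprotein receptor, *Pbx3* a homeodomain partner of HOX proteins, *Vwf* the clotting factor von Willebrand factor and *Selp* the adhesion molecule P-selectin. Their means in young and old mice were 106.5 and 223.0 for *Itgb3*, 80.8 and 234.8 for *Vldlr*, 59.2 and 106.0 for *Pbx3*, 285.2 and 500.6 for *Vwf* and 98.5 and 407.1 for *Selp*. All 5 had a higher mean in old mice, as a pattern like that of *Clca3a1* requires. With the age-by-letter means subtracted, the r of these genes was 0.57 to 0.81.

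After that subtraction other genes were most alike, among them *Cd38* (r = 0.95), *Acer2* (r = 0.93), *Osgin1* (r = 0.92) and *Eml4* (r = 0.91). *Cd38* encodes an enzyme that breaks down NAD, and its means were 36.9 in young and 90.1 in old mice. These r are given as a description over 12 mice.

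The neighbours of the cluster on the chromosome had old minus young differences from -0.75 to 0.23. *Sh3glb1*, whose start lies 40.6 kb from that of *Clca3a1* and which encodes a membrane-bending protein, had means of 251.5 in young and 248.1 in old mice and a difference of -0.05 (SE 0.24). *Hs2st1*, a heparan sulfate sulfotransferase, had a difference of -0.06 (SE 0.21), and *Selenof*, a selenoprotein of the endoplasmic reticulum, of 0.23 (SE 0.20). *Pkn2* and *Lmo4* had -0.16 (SE 0.22) and -0.24 (SE 0.27). On the other side, *Odf2l* had 0.12 (SE 0.32), *Col24a1* -0.42 (SE 0.60), *Znhit6* 0.02 (SE 0.38) and *Ddah1* -0.75 (SE 0.62). With the letter in the fit, *Col24a1* and *Ddah1* had -0.71 and -1.03. Of these 9 tested neighbours 0 were called between the ages by limma, with or without the letter in the fit. *Ccn1*, the other neighbour, had a mean of 8.22 and was not tested.

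**Figure D5:**
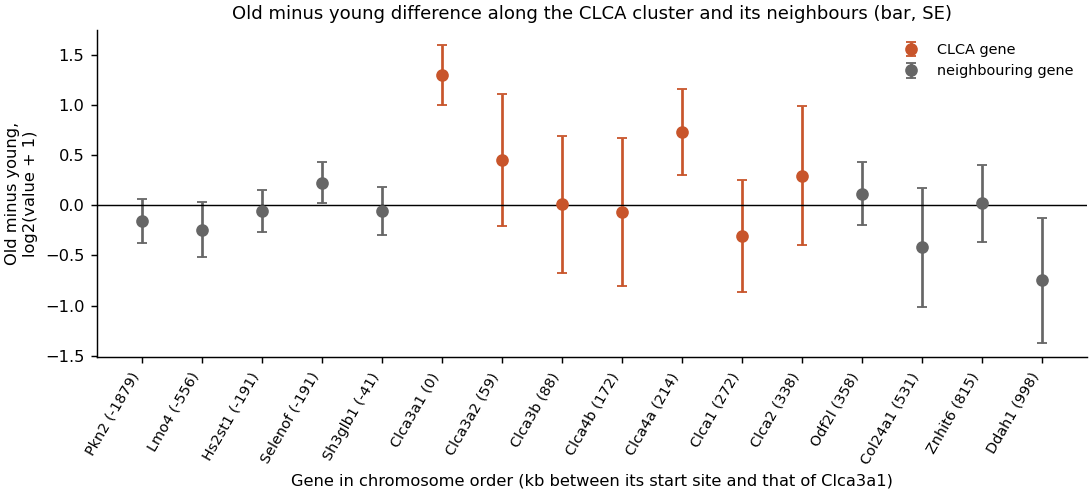
Old minus young difference on the log2(value + 1) scale (y axis, SE as bars) of the 7 CLCA genes in orange and their 9 tested neighbours in grey, in chromosome order, with the distance in kb between the start of each gene and that of *Clca3a1* in brackets. *Clca3a1* at 1.30 has the highest value, and the neighbours lie between -0.75 and 0.23.

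The sequence before the start site of *Clca3a1* is shown because this member had by far the highest level per length of the family. Printed are the 250 bases before the RefSeq start (GRCm38.p6, minus strand, 5′ to 3′), with no base marked.
*Clca3a1*, chr3:144760978-144761227: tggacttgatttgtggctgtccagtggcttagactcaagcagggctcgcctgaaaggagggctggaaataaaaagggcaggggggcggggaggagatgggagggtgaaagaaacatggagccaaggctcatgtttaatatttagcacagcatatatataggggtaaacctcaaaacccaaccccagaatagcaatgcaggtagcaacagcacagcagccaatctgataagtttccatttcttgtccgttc

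The promoters of 3 members in the RefSeq table are described here, and 6 motifs were searched on both strands in windows of 300 bases (250 before to 50 after the start). Of 32851 promoters of this length, 11.2% held the GATA letters AGATAA, 16.8% the RUNX letters TGTGGT and 8.67% the ETS letters ACAGGAA. The AP-1 letters TGANTCA were in 7.81%, the E-box letters CANNTG in 72.3% and the TATA letters TATAAA in 13.6%. None of these letter runs contains another. *Clca3a1* held the E-box letters and none of the 5 others. *Clca4b* held those of the E-box and TATA, and *Clca2* those of the E-box. A match is a run of letters and not a site of binding.

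Genes of the anoctamin and bestrophin families, listed here as calcium-activated chloride channels, were low. Of 12 anoctamin and bestrophin genes with a row, the level per 1000 bases was 2.79 to 5.58 (median 3.82), and 0 were above 10. *Ano1*, the channel that CLCA1 stabilises, had means of 24.8 in young and 24.2 in old mice and a level of 3.92 per 1000 bases. Of the 11 tested genes of this list, 0 were called between the ages (median difference 0.06) and 8 were called lower in letter B, with a median of -1.24. Over all genes 25.6% were called lower in letter B. Of the 3475 genes outside the family with a mean of 10 to 20, a range that holds some of this list, 53.7% were, with a median of -1.21. *Ano6* was not analysed here.

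Of 26 other chloride channel and transporter genes, 8 were above 10 per 1000 bases, led by *Clic1*, a chloride intracellular channel, at 85.7, and by *Ttyh3*, of the tweety family, at 27.0. Of the 25 tested, 0 were called between the ages (median difference 0.02), and 5 were called higher and 12 lower in letter B. Over all genes, 36.1% were called for the letter and 25.6% were called lower in letter B. Among the 5 list genes called higher were *Ttyh3* (0.67), *Clic4* (0.58), *Lrrc8d* (0.57) and *Slc12a2* (0.53). *Clic4* is another chloride intracellular channel, *Lrrc8d* a subunit of the volume-regulated anion channel, and *Slc12a2* encodes a cation-chloride cotransporter.

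Genes of calcium store release and entry had higher levels. Of 24 genes, 12 were above 10 per 1000 bases, led by the phospholipase *Plcg2* at 100.4, the phospholipase *Plcb2* at 78.5 and the calcium pump *Atp2a3* at 77.3. None of the 24 was called between the ages by limma, and the median difference was 0.05. In letter B 7 were called higher and 5 lower, beside 36.1% of all genes called for the letter and 25.6% called lower. Among reported integrin partners of CLCA proteins, *Itga6* had means of 327.2 in young and 484.7 in old mice, a difference of 0.44 (SE 0.33), and was called higher in letter B at 0.76 (adjusted p = 0.0160 in limma). *Itgb4*, which pairs with it in hemidesmosomes, was at 4.90 per 1000 bases and was called lower in letter B at -0.96 (adjusted p = 0.00450 in limma). Of the 4 tested partners, 1 was called higher and 2 were called lower in letter B. Such calls were frequent and moved with level over all genes, so no contrast between the partners is read from them.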

How the data were processed

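The deposited table of 12 mice (LSK-SLAM RNA-seq, 5 young and 7 old) was used. The authors sorted 15000 cells per sample, depleted ribosomal RNA and used 300 pg as input for TotalScript libraries. The submitters' processing notes name FastQC 0.11.8, STAR 2.5.4b, edgeR 3.24.3 and the build mm10. The counting tool, its annotation and its use of strand are not given in the sources used here. The labels list 24 entries, 2 for each mouse (L1 and L2), and the table has 1 column per mouse. Its normalized read counts are a signal: the authors scaled the reads of each gene to library size and a library factor before they deposited them. A table of the authors' own comparison (fold changes, log2 CPM, likelihood ratios and p-values) was not used.

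All values (100%) were whole multiples of the value of 1 read, within 0.001 of a read, so that reads could be recovered (0.861 to 5.12 M per mouse, where M is 1000000). Recovered reads are those on the genes of the table, not all reads sequenced. The value of 3 reads was 0.583 to 3.69. Intervals and such floors cover counting error only. Of 31 pairs of libraries within an age group, none held the same counts within sampling noise. Ages are those of the labels, whereas a supplementary legend of the paper names 6 and 24 months for LSK-SLAM RNA-seq. P-values measure the spread between these mice.

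Tests used limma 3.58.1 (lmFit, eBayes with trend) in R 4.3.3 on log2(value + 1) over 12354 genes (minimum mean over all mice, 10), with Benjamini-Hochberg adjustment, at a threshold of 0.05. Differences understate changes of low genes on this scale. The fits held age, age and letter, or their interaction. Other settings were pseudocounts of 0.5 and 4, a minimum mean of 1, no filter, no trend, median-ratio scaling, edgeR 4.0.16 and DESeq2 1.42.0 on recovered reads, each letter alone, a replicate block and leaving out each mouse. Thinned reads and replicates 1 to 5 without the block were added after the data were seen. The fitting procedure was tested on simulated data.

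Exon lengths, shared 50-base words and coding sequences came from GENCODE vM21 (18745 of 18762 identifiers found), promoters from RefSeq (GRCm38.p6). Python 3.11.15, numpy 2.4.6, scipy 1.17.1, pandas 2.3.3 and biopython 1.88 were used. The members, lists and tests were chosen with earlier results of these data known. Named were all members, the 5 genes most like *Clca3a1* by each measure, 5 neighbours on each side, and list genes by level per length or by a call. The rule also covered genes most like the 6 low members, which are not named here. Of the marker lists, 0 of the tested 4 sort, 6 stem cell, 6 lineage, 5 goblet, 1 stratified epithelial, 5 stroma and 3 mast cell or megakaryocyte genes were called between the ages. *Stab2*, *Spdef*, *Krt5*, *Cma1*, *Mcpt4*, *Clcn2*, *Clcn7*, *Clic5*, *Slc12a7*, *Slc12a9* and *Ryr2* were not analysed here. Some genes and sequences are not reported here.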

Additional observations from a re-analysis of the deposited data

How the results depend on the processing

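The old minus young difference of *Clca3a1* was between 1.16 and 1.63 under the 27 alternatives, and was called in 6 of them. Since the family was chosen on this difference, nothing is read from its constant sign. The B minus A difference of *Clca3a1* stayed above 0 under all 22 alternatives, between 0.68 and 1.23. It was called in 21 of them, edgeR and DESeq2 included, and the call was lost without age in the fit (0.68). Leaving out 1 mouse at a time gave 1.16 to 1.48 and 0.80 to 1.02. The B minus A difference of *Clca2* was called in all 22. In edgeR's quasi-likelihood test neither *Clca4b* (-1.66, adjusted p = 0.0539) nor *Clca3b* (-1.38, adjusted p = 0.0777) was called. *Clca3b* also lost its call with median ratios (-1.19, adjusted p = 0.0534 in limma). The level of *Clca3a1* was 4.38 to 15.7 times that of the next member. Among the 27 alternatives the old minus young difference was above 0 in 27 for *Clca4a*, 26 for *Clca3a2*, 22 for *Clca2*, 13 for *Clca3b*, 8 for *Clca4b* and 0 for *Clca1*. The 6 low members had 0 to 79 reads per mouse.

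Between the ages 13 genes were called. The number was 2 without the trend, 5 with median ratios, 57 in DESeq2, 41 in edgeR's likelihood-ratio test, 37 with the letter as a covariate, 1 in letter A alone and 100 in letter B alone. Without 1 mouse it was 3 to 32. Between the letters 4462 genes were called, and without 1 mouse 2943 to 5003. For the interaction 2 genes were called, and without 1 mouse 0 to 6. Median ratios shifted the median B minus A difference of all genes by 0.316, and of the called genes 41.6% instead of 70.8% were lower in letter B, and all 7 members kept their sign. The cause of these changes was not tested.

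With a replicate block over replicates 1 to 5, 19 genes were called, and 8 were called in these mice without the pairing. The difference of *Clca3a1* was 1.48 in both fits. Young and old mice with the same number had a mean correlation of their deviations of 0.136 (-0.559 to 0.615, 5 pairs). Those with different numbers had -0.023 (-0.707 to 0.712, 30 pairs). With 5 pairs that spread so widely, whether the numbers pair the mice cannot be told.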
